A study of Mus musculus with 14 samples.

Results

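The prostanoid receptors are a family of G protein-coupled receptors for prostaglandins and thromboxane, and their transcripts were measured here in mouse mast cells before and after coculture with fibroblasts. The members were the 8 genes Ptgir, Ptger1, Ptger2, Ptger3, Ptger4, Ptgfr, Tbxa2r and Ptgdr, and every array probe carrying a member's gene name was taken. 7 of the 8 genes were named by a probe, with 13 probes in all, among 27975 gene names on the array. No probe carried the name Ptger1 in the files used here.

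Bone marrow-derived mast cells (BMMCs) from mice of a mixed strain background on C57BL/6, labelled the same for all samples, were grown in IL-3 for 4 to 6 weeks, after which more than 97% of cells carried Kit and the IgE receptor chain FcεRIα, per the labels. Part of the cells were then kept for 96 h on Swiss 3T3 fibroblasts, a mouse fibroblast line, with stem cell factor (SCF) at 100 ng/ml, a culture in which mast cells mature. Both conditions were studied in cells wild-type for Pla2g3 (Pla2g3+/+) and in knockout cells (Pla2g3-/-), which lack a secreted phospholipase A2. There were 3 arrays of wild-type BMMCs, 4 of knockout BMMCs, 4 of wild-type cocultured cells and 3 of knockout cocultured cells. Wild-type and knockout groups shared the strain label, and both cocultured groups received SCF together with the fibroblasts, so the effects of these cannot be told apart. Nothing in the labels ties a replicate to its own mouse or culture, and the tests therefore measure only how these samples vary, which may be technical.

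Prostanoids are made from arachidonic acid, which phospholipases A2 release from membranes, by cyclooxygenases and then by synthases specific to each product. The receptors differ in the G protein they couple to. The prostacyclin receptor (Ptgir), the PGD2 receptor DP1 (Ptgdr) and the PGE2 receptors EP2 (Ptger2) and EP4 (Ptger4) couple mainly to Gs and raise cAMP, EP3 (Ptger3) couples mainly to Gi, and EP1 (Ptger1), the PGF2α receptor (Ptgfr) and the thromboxane receptor (Tbxa2r) couple to Gq and raise calcium. Mast cells are a major source of PGD2, and EP3 is known as the PGE2 receptor through which PGE2 can activate mouse mast cells.

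The stretches before the starts of the 4 genes whose probes passed the filter are shown because these genes moved in opposite directions in coculture. Each is the 250 bases before the RefSeq start on build GRCm38.p6, read 5′ to 3′ on the gene's strand, and capitals mark the motif GGGCGG or its reverse complement.
Ptgir, chr7:16906240-16906489, plus strand: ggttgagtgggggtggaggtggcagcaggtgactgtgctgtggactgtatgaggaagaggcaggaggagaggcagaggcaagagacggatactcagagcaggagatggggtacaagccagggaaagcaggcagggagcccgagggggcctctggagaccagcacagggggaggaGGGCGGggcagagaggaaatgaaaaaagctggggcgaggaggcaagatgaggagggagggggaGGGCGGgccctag
Ptgfr, chr3:151837529-151837778, minus strand: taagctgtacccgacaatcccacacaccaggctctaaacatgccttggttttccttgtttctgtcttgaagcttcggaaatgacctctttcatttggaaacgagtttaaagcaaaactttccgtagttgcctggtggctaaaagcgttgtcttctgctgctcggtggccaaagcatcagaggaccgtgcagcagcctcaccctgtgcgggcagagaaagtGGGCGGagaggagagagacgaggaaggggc
Ptger3, chr3:157566626-157566875, plus strand: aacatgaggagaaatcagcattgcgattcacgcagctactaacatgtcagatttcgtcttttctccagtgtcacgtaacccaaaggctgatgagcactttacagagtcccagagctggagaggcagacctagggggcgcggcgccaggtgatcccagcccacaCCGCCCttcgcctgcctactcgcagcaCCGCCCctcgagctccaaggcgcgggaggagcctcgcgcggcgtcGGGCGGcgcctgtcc
Ptger4, chr15:5244188-5244437, minus strand: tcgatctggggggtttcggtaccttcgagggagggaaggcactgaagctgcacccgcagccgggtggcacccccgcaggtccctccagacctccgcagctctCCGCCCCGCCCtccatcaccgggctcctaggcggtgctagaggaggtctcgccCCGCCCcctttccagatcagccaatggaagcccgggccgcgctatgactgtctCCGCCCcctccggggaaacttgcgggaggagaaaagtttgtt
7 of the 8 genes had an entry in the RefSeq promoter table. GGGCGG, the GC box, occurred 2 times before Ptgir, 1 time before Ptgfr, 3 times before Ptger3 and 4 times before Ptger4, with 1 overlapping pair before Ptger4, and 32.7% of 32851 promoters of the same length held it on either strand. The cAMP response element TGACGTCA, held by 1.55% of promoters, did not occur in these 4 windows on either strand. The AP-1 motif TGANTCA, held by 6.75%, and the GATA motif AGATAA, held by 9.99%, did not occur either. The same was true of the E-box forms CACGTG, held by 6.02%, and CATGTG, held by 12.3%. GGGCGG was in all 4 windows, 2 and 1 times before the genes that rose and 3 and 4 times before those that fell. The other motifs are held by few promoters, so their absence from 4 windows cannot compare genes that rose with genes that fell. Whether motifs differ with direction was not tested. GC content was 63.6% before Ptgir, 52% before Ptgfr, 62% before Ptger3 and 66.8% before Ptger4, against a median of 52.4% over all promoters.

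Levels are log2 of the processed signal relative to the array's 75th percentile of signal, so 0 is the level of that percentile. A probe was taken as measured where the scanner software marked it well above background, and it entered the tests where this held on at least 3 arrays. 6 of the 13 probes, of 4 of the 7 genes, passed this filter: Ptgir, Ptger3, Ptger4 and Ptgfr. Ptgir, Ptger3 and Ptger4 each had a probe above background on all 14 arrays. The filter can be passed through 1 group where a gene is high, as for Ptgfr, so counts over these 4 genes describe them and no more.

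The targeted gene, Pla2g3, had a level of -3.80 ± 0.87 (SD, n = 3) in wild-type BMMCs and -1.57 ± 0.28 (SD, n = 4) in knockout BMMCs, and of -3.48 ± 0.96 (n = 4) and -2.32 ± 0.78 (n = 3) after coculture. The probe was above background on 1 of 3 wild-type and 4 of 4 knockout BMMC arrays, and on 2 of 4 wild-type and 3 of 3 knockout cocultured arrays, so the wild-type means rest in part on values below background. The signal was thus higher, not lower, on the arrays labelled knockout, without passing the limma test (adjusted p = 1 and 0.796). The sources used here do not give the deleted part of the gene, so whether this probe lies in it is unknown and the probe checks no label. "Knockout" therefore stands below for arrays labelled knockout. The mast cell genes Kit and Fcer1a were above background on all arrays, at mean levels of 6.76 to 7.04 and 8.05 to 8.56 over the 4 groups. From BMMCs to cocultured cells, averaged over genotypes, 3 of 10 measured mast cell markers rose and 0 fell (limma, adjusted p under 0.05). In that comparison 28.2% of all genes were called. Replicates within a group correlated at r = 0.895 to 0.981 across probes.

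Coculture changed the PGE2 and prostacyclin receptors in opposite directions. Ptger3 and Ptger4 fell, Ptgir rose, and Ptgfr rose from a level below background. All 4 genes passed the test of the coculture effect averaged over both genotypes (adjusted p under 0.05, limma with Benjamini-Hochberg adjustment over 16022 genes), in which 28.2% of all genes were called. The median change of the 4 genes was 0.03, or -0.51 with Ptgfr at its lower bound over the 7 arrays, and that of all genes 0.02. 3 of the 4, Ptger3, Ptger4 and Ptgir, had no overlap between the 7 BMMC and 7 cocultured arrays, as had 12.2% of all genes.

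**Figure D1:**
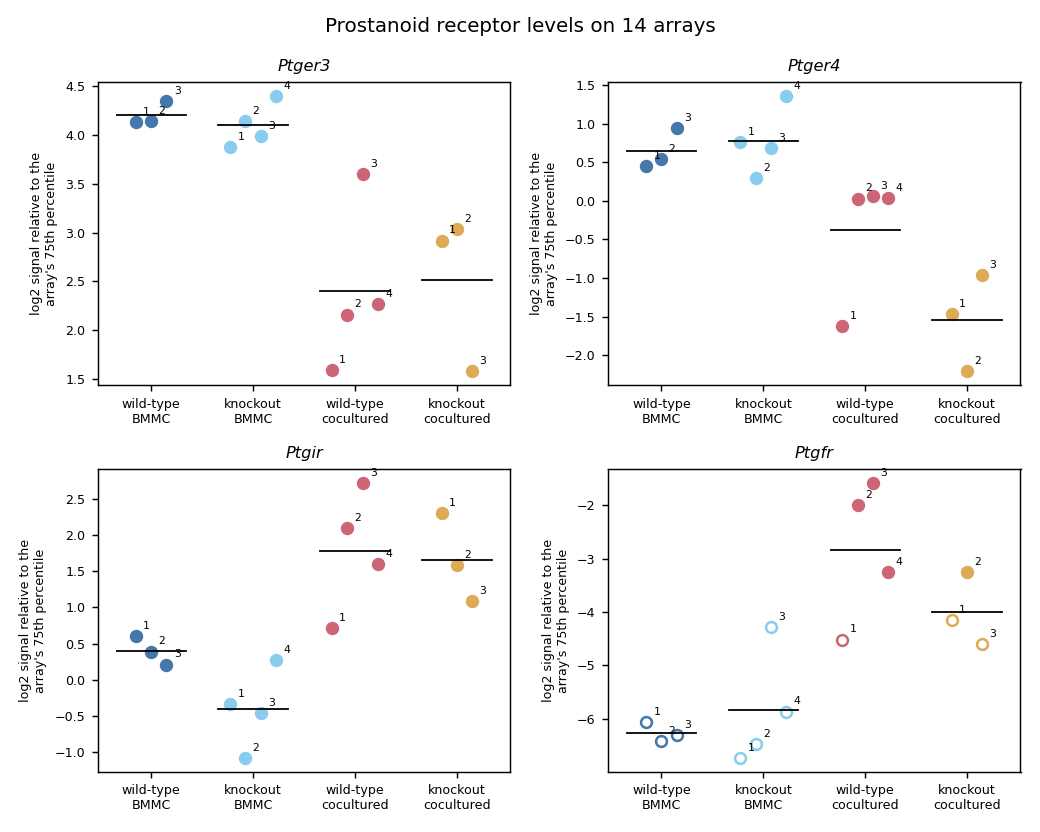
Level of Ptger3, Ptger4, Ptgir and Ptgfr on each array (vertical axes, log2 signal relative to the array's 75th percentile; groups on the horizontal axes; the digit is the replicate number). Filled points are well above background, open points are not, and black lines are group means; Ptger3 and Ptger4 are lower and Ptgir higher on all 7 cocultured arrays than on any BMMC array, and Ptgfr is filled on 4 cocultured arrays.

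Ptger3, the Gi-coupled PGE2 receptor EP3, stood at 4.13, 4.14 and 4.35 in wild-type BMMCs and at 3.88, 4.14, 3.99 and 4.40 in knockout BMMCs. After coculture it stood at 1.59, 2.16, 3.60 and 2.27 in wild-type cells and at 2.92, 3.04 and 1.58 in knockout cells. The BMMC arrays lay close together, while the cocultured arrays spread more widely and all lay below them. The level fell by 1.70 on the log2 scale (SE 0.31, 95% interval -2.37 to -1.02, 3.24-fold, adjusted p = 0.00149) averaged over genotypes. It fell by 1.80 in wild-type cells (SE 0.44, adjusted p = 0.0175), where 12.9% of genes were called, and by 1.59 in knockout cells (SE 0.44, adjusted p = 0.0316), where 14.3% were called. Each within-genotype call was near the threshold: it was lost in wild-type cells without any 1 of the 3 wild-type BMMC arrays (adjusted p = 0.0529, 0.0547 and 0.068 without replicates 1, 2 and 3). In knockout cells it was lost without any 1 of the 4 knockout BMMC arrays (adjusted p = 0.0568, 0.0694, 0.0573 and 0.0693) and without knockout cocultured replicate 1 (0.0557) or 3 (0.081). With slide as a block both within-genotype calls were lost (-1.83, adjusted p = 0.0504, and -1.63, adjusted p = 0.0576), and so they were with replicate number as a block (adjusted p = 0.0561 and 0.0944). The averaged change kept its call with each of the 14 arrays left out in turn (change -1.90 to -1.46, highest adjusted p = 0.00519).

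The chosen Ptger3 probe lies at mm9 chr3:157307508-157307567.

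Ptger4, the Gs-coupled PGE2 receptor EP4, stood at 0.45, 0.54 and 0.94 in wild-type BMMCs and at 0.76, 0.30, 0.69 and 1.36 in knockout BMMCs. After coculture it stood at -1.62, 0.03, 0.06 and 0.04 in wild-type cells and at -1.47, -2.21 and -0.96 in knockout cells. In wild-type cocultured cells 3 arrays lay close together and replicate 1 lay far below them, among the knockout arrays. The level fell by 1.67 on the log2 scale (SE 0.31, 95% interval -2.34 to -1, 3.18-fold, adjusted p = 0.00153) averaged over genotypes. In knockout cells it fell by 2.32 (SE 0.44, 5.01-fold, adjusted p = 0.00455). In wild-type cells the change was -1.02 (SE 0.44, adjusted p = 0.156), which did not pass, although the groups did not overlap, as for 25.5% of all genes there. With slide as a block it was -1.29 (SE 0.28, adjusted p = 0.0194) and passed, and without wild-type cocultured replicate 1 it was -0.60. The averaged change was -0.80 with normexp background correction (adjusted p = 0.0106) and -2.66 in the authors' normalized values (adjusted p = 0.00291). The size in the authors' values depends on the constant taken off each array and on their floor, as cocultured signals were 19.7 to 156. The chosen probe lies at mm9 chr15:5184419-5184478 on the minus strand, and a second probe (chr15:5156675-5156734), from another transcript record, was above background on 1 array only.

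Ptgir, the Gs-coupled prostacyclin receptor, stood at 0.60, 0.39 and 0.21 in wild-type BMMCs and at -0.34, -1.08, -0.46 and 0.27 in knockout BMMCs. After coculture it stood at 0.71, 2.10, 2.72 and 1.6 in wild-type cells and at 2.30, 1.58 and 1.09 in knockout cells. All cocultured arrays lay above all BMMC arrays, the nearest being wild-type cocultured replicate 1. The level rose by 1.72 on the log2 scale (SE 0.32, 95% interval 1.03 to 2.41, 3.30-fold, adjusted p = 0.0016) averaged over genotypes. In knockout cells it rose by 2.06 (SE 0.45, 4.16-fold, adjusted p = 0.0106), a call lost without knockout cocultured replicate 1 (1.74, adjusted p = 0.0585). In wild-type cells the change was 1.38 (SE 0.45, adjusted p = 0.0623), which did not pass. Without wild-type cocultured replicate 1 it was 1.74 and passed (adjusted p = 0.0182), and with quantile normalization it was 1.4 and passed (adjusted p = 0.0456).

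The chosen Ptgir probe lies at mm9 chr7:17496032-17496091 and the second, shown because its values differ from the first, at chr7:17492798-17492857, both on the plus strand.
Ptgir probe A_52_P681368: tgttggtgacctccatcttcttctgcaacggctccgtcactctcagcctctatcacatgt
The second probe was above background on 2 of 7 BMMC arrays and on 7 of 7 cocultured arrays, at -4.28 to -2.54 and -3.39 to -2.42, so that the ranges overlapped. Its change was 0.59 (SE 0.30, 95% interval -0.06 to 1.24, adjusted p = 0.163), which did not pass. Both Ptgir probes correlated at r = 0.517 over the 14 arrays and at r = 0.0142 once group means were removed. The rise of Ptgir thus rests on the chosen probe. Its averaged change was 3.59 in the authors' normalized values (adjusted p = 0.0025). In those values a constant of 67 to 172 had been taken off each array, and values under 10 were set to 10. BMMC signals of the chosen probe were 57.2 to 213, so the size of that change depends on the constant and the floor.

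**Figure D2:**
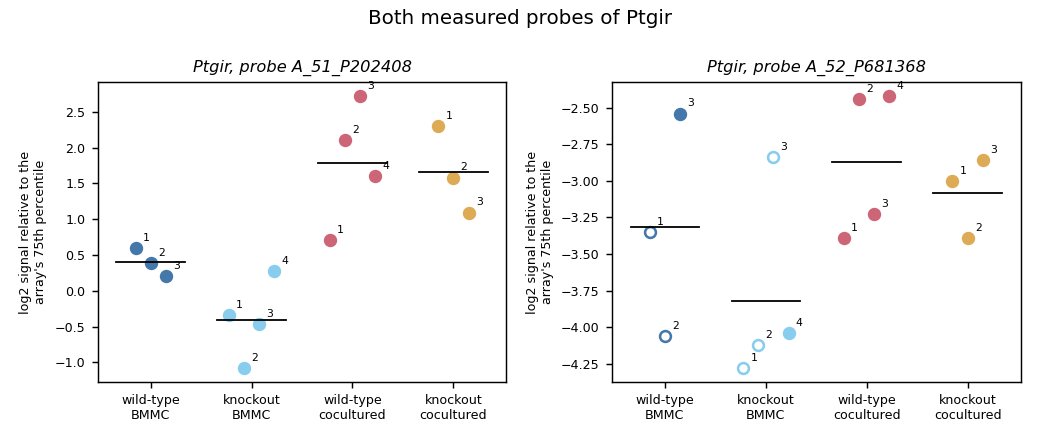
Level on each array (vertical axes, log2 signal relative to the array's 75th percentile) of both measured probes of Ptgir, by group, with replicate numbers, filled points for values well above background and black lines at group means. The chosen probe (left) changes by 1.72 and the second (right) by 0.59.

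Ptgfr, the Gq-coupled PGF2α receptor, was below background on all 7 BMMC arrays, at -6.07, -6.42 and -6.31 in wild-type and -6.74, -6.48, -4.28 and -5.87 in knockout BMMCs. After coculture it stood at -4.52, -2, -1.58 and -3.25 in wild-type cells, above background on replicates 2, 3 and 4, and at -4.15, -3.25 and -4.60 in knockout cells, above background on replicate 2. The 4 arrays above background were the 4 highest, and knockout BMMC replicate 3 lay within the range of the cocultured arrays. On that BMMC array the lowest spot called above background was at -2.75, against -4.53 to -3.81 on the other BMMC arrays. Its place in the range may thus reflect the array, and its high floor enters the bounds that use knockout BMMCs. The averaged coculture effect passed the test (fitted change 2.63, SE 0.49, adjusted p = 0.0016). Set against the lowest spot signal called above background on each BMMC array, the mean over the 7 cocultured arrays was at least 1.57-fold higher, or 1.48-fold with both genotypes weighted equally; the 3 cocultured arrays not above background entered at their measured values. In wild-type cells the fitted change was 3.43 (SE 0.69, adjusted p = 0.00616), at least 2.22-fold. In knockout cells it was 1.84 (SE 0.69, adjusted p = 0.0948), which did not pass, and no bound above 1 could be given; without knockout BMMC replicate 3 it was 2.36 and passed (adjusted p = 0.0376). The averaged call ended with normexp background correction (0.42, adjusted p = 0.227), and in the authors' normalized values, cut at a floor, the change was 0. The probe lies at mm9 chr3:151464323-151464382 on the minus strand, and a second probe (chr3:151460610-151460669), from another transcript record, was above background on no array.

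**Figure D3:**
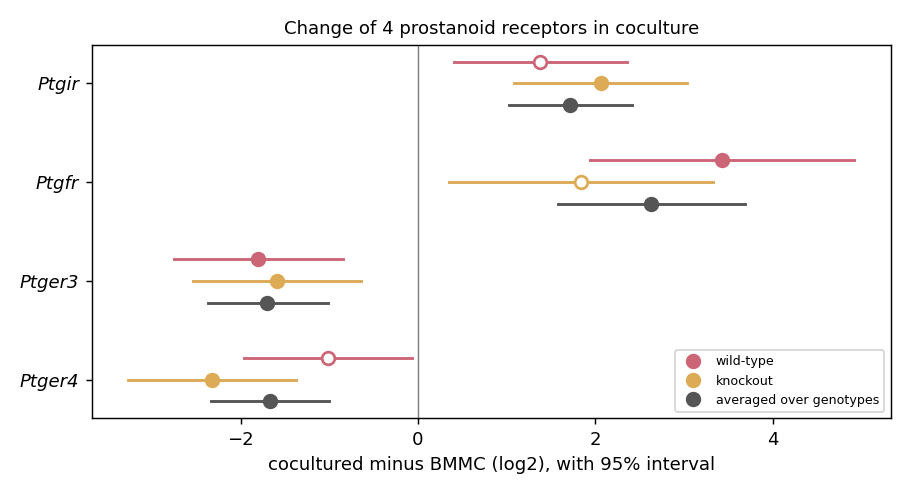
Coculture effect (horizontal axis, cocultured minus BMMC on the log2 scale) of 4 receptors, in wild-type cells, in knockout cells and averaged over genotypes; bars are 95% intervals of the fit and filled points passed the test at an adjusted p under 0.05. The 4 averaged effects are filled, at 1.72, 2.63, -1.70 and -1.67, and the open points are Ptgir and Ptger4 in wild-type and Ptgfr in knockout cells; for Ptgfr the fitted change rests on values below background.

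The other 3 receptors with a probe were at or near background throughout. Ptger2, the EP2 receptor, ranged from -6.78 to -4.89 and Tbxa2r, the thromboxane receptor, from -6.44 to -3.64, and neither was well above background on any array. Ptgdr, the DP1 receptor for PGD2, was above background with 1 of its 2 probes on 1 array, wild-type cocultured replicate 3, at -3.18. These values give no direction of change. Low transcript cannot be told apart here from a probe that does not respond, so the values set no upper bound either. Ptgdr2, the other PGD2 receptor, belongs to another receptor family. Its chosen probe was above background on all 14 arrays and changed by 0.27 (SE 0.32, 95% interval -0.42 to 0.96, adjusted p = 0.581). A second Ptgdr2 probe, from the same transcript record, was above background on no array.

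Fibroblast transcripts were present on the cocultured arrays, although the labels give a purity of more than 99% for the cocultured cells. In the averaged effect, where 28.2% of all genes were called, 13 of 14 measured fibroblast markers rose. Their median change was 5.28, or 3.93 with genes below background in BMMCs at their lower bound. Of the 14, 1 to 3 were above background on each BMMC array and 10 to 14 on each cocultured array. Markers could thus pass the filter through the cocultured arrays alone, as Ptgfr did. Col1a1 and Col3a1, genes of fibrillar collagens, were below background on all 7 BMMC arrays and above it on all 7 cocultured arrays. The summed level of the 14 markers was -1.41 to 1.25 on BMMC arrays, 6.79, 8.66, 4.02 and 7 in wild-type cocultured replicates 1 to 4 and 3.85, 4.65 and 5.87 in knockout cocultured replicates 1 to 3. The 3 cocultured arrays with the lowest sums held the 3 highest Ptger3 levels, 2.92 to 3.60, and the other 4 lay at 1.58 to 2.27. Ptger4, which also fell, did not show this order, at -2.21 to 0.06 on the same 3 arrays and -1.62 to 0.04 on the others. Ptgir was at 1.58 to 2.72 on these 3 and at 0.71 to 2.10 on the others. Ptgfr was highest on wild-type replicates 3 and 2, which had the second lowest and the highest sum of the 7 arrays. The part of fibroblast RNA in these results was not tested, and in such bulk samples fewer cells of a type and less RNA per cell cannot be told apart. Of the other cell types, 2 of 5 measured macrophage markers rose and 2 of 5 megakaryocyte markers fell. None of 2 granulocyte and 2 lymphocyte markers passed. With 28.2% of all genes called, counts over so few markers show no shift in these cell types, and their part was not tested either.

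**Figure D4:**
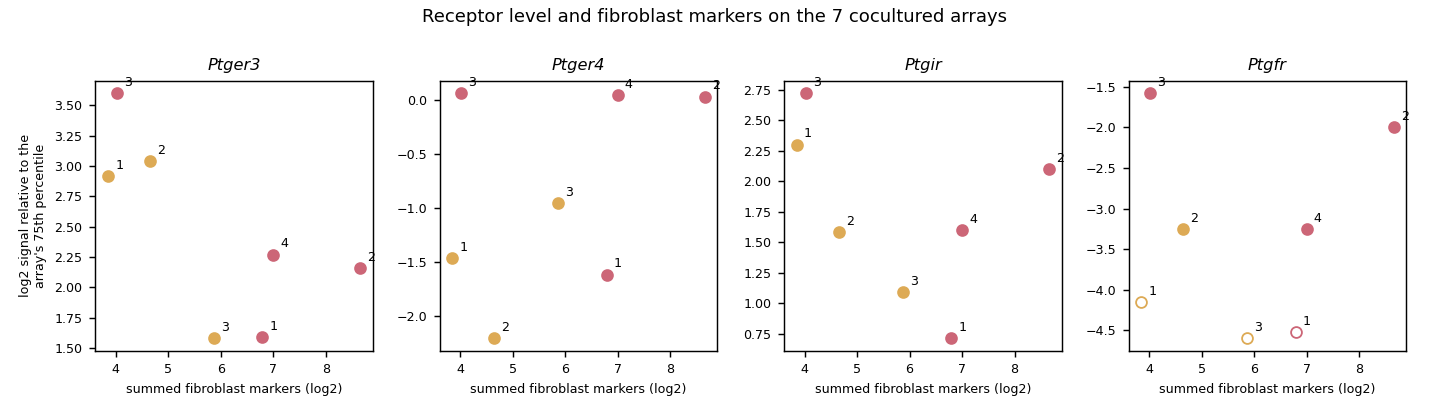
Level of each receptor (vertical axes, log2 signal relative to the array's 75th percentile) against the summed level of 14 fibroblast markers (horizontal axes, log2) on the 7 cocultured arrays, red for wild-type and yellow for knockout, with replicate numbers; open points are not well above background. Ptger3 is highest, 2.92 to 3.60, on the 3 arrays with the lowest sums, and Ptgfr is at -1.58 and -2 on arrays with sums of 4.02 and 8.66. Ptger4 is at -2.21 to 0.06 on the 3 arrays with the lowest sums and at -1.62 to 0.04 on the others.

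No genotype difference passed the test for any of the 4 receptors tested. In BMMCs, after coculture and in the genotype difference of the coculture effect, 0 of the 4 receptors and 0% of all 16022 genes passed (limma; 169, 607 and 131 genes had an unadjusted p under 0.05). The largest difference among receptors that were above background on all arrays was that of Ptger4 after coculture, with knockout minus wild-type at -1.17 (SE 0.44, 95% interval -2.12 to -0.23, adjusted p = 0.796), and wild-type replicate 1 lay within the knockout range. The coculture effect on Ptger4 differed between genotypes by -1.31 (SE 0.62, 95% interval -2.64 to 0.02, adjusted p = 0.994). For Ptger3 the difference after coculture was 0.11 (95% interval -0.84 to 1.06) and for Ptgir -0.13 (95% interval -1.10 to 0.85). In BMMCs Ptgir differed by -0.80 (95% interval -1.78 to 0.17, adjusted p = 1), Ptger3 by -0.10 and Ptger4 by 0.13. On the 3 slides that held both BMMC genotypes, with 1 array each, the Ptgir difference was -0.94, -1.47 and -0.68, and with replicate number as a block it was -0.88 (SE 0.52, adjusted p = 1). These intervals rest on a spread shared by all 4 groups, with SEs of 0.45 for Ptgir and 0.44 for Ptger3 and Ptger4. With only the BMMC groups fitted, the SEs of Ptgir, Ptger3 and Ptger4 were 0.31, 0.18 and 0.28. With only the cocultured groups they were 0.52, 0.56 and 0.52, and no receptor passed in either fit. The intervals given leave room for differences of the size of the coculture effects in some receptors. Those for BMMCs are widened by the spread of the cocultured arrays.

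The arrays came from 4 slides, and slide 4, scanned on another date, held knockout BMMC replicate 4 and replicate 3 of both cocultured groups. Both cocultured genotypes were together on slides 2 and 4, with 1 array each. There the difference knockout minus wild-type was 1.45 and -2.02 for Ptger3, 0.86 and -1.63 for Ptgir, 1.26 and -3.02 for Ptgfr, and -0.59 and -1.03 for Ptger4. Only Ptger4 had the same sign on both slides. Without the arrays of slide 4, Ptger3 was higher in knockout than in wild-type cocultured cells by 0.97 (SE 0.23, adjusted p = 0.0155) and its coculture effect differed between genotypes by 1.17 (SE 0.31, adjusted p = 0.0431), while 4233 and 1761 of all genes passed in the same comparisons. Within the slides that held both conditions of a genotype, the coculture effect on Ptger3 was -2.55 and -2.13 in wild-type and -0.96, -1.10 and -2.82 in knockout cells. That on Ptger4 was -2.16 and -0.90, and -2.23, -2.51 and -2.33, and that on Ptgir was 0.33 and 1.64, and 2.64, 2.65 and 0.82. Each of these within-slide effects had the sign of the averaged effect.

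Genes of the same pathway were read from lists of known roles, for the averaged effect. In this effect 28.2% of all genes were called. Of 9 measured prostanoid synthesis genes 3 rose and 1 fell, with a median change of 0.38 against 0.02 for all genes. Ptgs2 (the inducible cyclooxygenase) and Ptges (a PGE2 synthase) were below background in all BMMCs and at least 33.5-fold and 10.2-fold higher over the 7 cocultured arrays (adjusted p = 7.03e-06 and 2.31e-05), Hpgds, the haematopoietic PGD2 synthase, rose by 2.11 (SE 0.18, adjusted p = 5.12e-06), and Tbxas1, the thromboxane synthase, fell by 1.05 (SE 0.33, adjusted p = 0.0295). The Tbxas1 call was lost in 11 of 28 other settings, among them the slide block (adjusted p = 0.0658), and the Ptges call was lost in the authors' normalized values (0.78, adjusted p = 0.645). These 7 arrays are also those on which Col1a1 and Col3a1 were above background. Any gene silent in BMMCs and present throughout coculture has this pattern, so it does not tell which cells the transcripts came from. The part of fibroblast RNA was not tested. Of 4 measured transport and breakdown genes 1 rose, Ptgr1, a prostaglandin reductase, by 2.03 (adjusted p = 0.016, and 0.0638 in the authors' normalized values; median of the list 0.59), a share near that of all genes.

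On the Gs and Gi side, 3 of 25 measured genes of the cAMP pathway rose and 2 fell (median 0.16), a smaller share than the 28.2% of all genes called. Gnai1, a Gi subunit through which EP3 can signal, rose by 2.25 (adjusted p = 0.00196), and the cAMP phosphodiesterases Pde8a rose by 1.14 (adjusted p = 0.0022), Pde4a fell by 1.61 (adjusted p = 4.73e-05) and Pde3b fell by 0.60 (adjusted p = 0.0122). The calls of Pde8a and Pde3b were lost with normexp correction (0.45, adjusted p = 0.105, and -0.36, adjusted p = 0.148), and in the authors' values the change of Pde8a was 0 (adjusted p = 1). On the Gq and G12 side, 4 of 16 rose and 5 fell (median -0.39), a larger share than 28.2%, for which no test was made. Gnaq, the Gq subunit, rose by 2.70 (adjusted p = 0.00355) and Gna13 by 1.01 (adjusted p = 0.00117), while Plcb1, a phospholipase C downstream of Gq, fell by 2.58 (adjusted p = 2.62e-05). Gnaq was above background on 1 of 3 wild-type and 4 of 4 knockout BMMC arrays, so its fitted size rests in part on values below background. In the authors' values Gnaq was 1.57 (adjusted p = 0.236) and Plcb1 -0.47 (adjusted p = 0.673), and with normexp correction both kept their calls at 1.16 and -1.01. Of 14 genes of receptor desensitisation 2 rose and 3 fell (median -0.18), a share near that of all genes. Rgs16 and Rgs1, which speed GTP hydrolysis by G proteins, rose by 4.86 and 1.78 (adjusted p = 1.21e-05 and 0.0106), and Arrb1 (β-arrestin 1) and Grk5 (a receptor kinase) fell by 0.81 and 0.66 (adjusted p = 0.0109 and 0.0258). Rgs16 was above background on 1 of 3 wild-type and 0 of 4 knockout BMMC arrays, so its fitted size rests mostly on BMMC values below background. The Rgs16 call was lost in the authors' values (1.61, adjusted p = 0.268; 1.81 with normexp), and that of Grk5 in 6 of 28 other settings, among them the slide block (adjusted p = 0.0521).

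For the 3 receptors above background on all 14 arrays, the genes with the most similar levels were sought among 10839 others above background on all arrays. Ptger3 was most like Dtx4 (r = 0.975), Osm (0.975) and Coro2a (0.974), Ptger4 most like Pim1 (0.951), Zfp318 (0.944) and Pde3b (0.925), and Ptgir most like Fxyd6 (0.945), Plek (0.935) and Bud31 (0.93). The arrays share slides and the coculture effect, so these values describe the 14 arrays, and with group means removed they were 0.921 to 0.957, 0.736 to 0.804 and 0.772 to 0.81. Pde3b, the phosphodiesterase most like Ptger4, is also in the cAMP list.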

How the data were processed

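RNA (450 ng per sample) was labelled with Cy3 and hybridised to single-colour Agilent mouse arrays, 1 array per sample. Spot intensities were extracted with Agilent Feature Extraction 9.5.1.1, per the submitters' processing notes, and the processed signal, a background-subtracted intensity per spot with flags for background and outliers, was used as deposited by the authors. The authors also deposited a table of normalized intensity values, per the file headers, which served as an alternative. In it a constant had been taken off each array's values, and 59 to 59.8% of the values per array lay below 0. Values under 10 were set to 10 here before log2 was taken. Its 14 columns of calls were not used.

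Here log2 of the processed signal minus each array's 75th percentile (69.4 to 176 in signal) was averaged over the spots of a probe, leaving out 74 to 326 outlier spots per array, none of them on a receptor probe. Of 41174 probes, 17550 to 23031 per array were well above background, 23626 passed the filter, and 32 of these were left out for missing values. Where a gene had several such probes, its brightest on average was used. Names came from RefSeq accessions or symbols (13051 of 16022 genes tested; the file's name otherwise). A model of the 4 groups was fitted with limma 3.58.1 (lmFit, eBayes; R 4.3.3), two-sided, with Benjamini-Hochberg adjustment over all genes, and was tested on simulated data. Probe positions are on mm9, per the file headers. The lower bounds use, per array, the lowest single spot called above background.

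The receptors and gene lists were chosen with earlier results of these data known, and named genes are, per list, those called with the lowest adjusted p (up to 4), the defining markers, and the 3 genes most like a receptor. Marker lists for macrophages, megakaryocytes, granulocytes and lymphocytes are given as counts. Of the mast cell and fibroblast lists only the defining markers are named. Wild-type and knockout BMMCs of the same replicate number correlated in their deviations from group means (0.197, 0.499 and 0.489). They also shared slides, so pairing by number and slide cannot be told apart. Other groups of the same number gave -0.548 to 0.121. Alternatives covered scaling, background correction, filters, blocks, variance model and left-out arrays. Some items are not reported here.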

Additional observations from a re-analysis of the deposited data

Results flagged for a closer look

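The 13 receptor probes were each examined in knockout BMMCs and in wild-type cocultured cells, the groups with 4 arrays. There, 5 values stood far from the other 3 by Dixon's criterion, which chance meets in about 1 in 20 groups. The share over all probes was not counted. Ptger4 on wild-type cocultured replicate 1 was -1.62, against 0.03 on the nearest array. Ptgdr (probe A_52_P36889) on wild-type cocultured replicate 3 was -3.18, against -6.06. On knockout BMMC replicate 3, the array with the fewest probes above background, the second Ptgir probe was -2.84 against -4.04 and Ptger2 was -4.89 against -6.51, neither above background. The second Ptger4 probe (A_52_P223473) on knockout BMMC replicate 2 was -6.44 against -5.08, below background.

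2 probes outside the tests gave a signal above background on a single array, wild-type cocultured replicate 3: Ptger4 (A_52_P223473) at -2.81 and Ptgdr (A_52_P36889) at -3.18. On the other 13 arrays neither was above background.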

How the results depend on the processing

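The averaged coculture effect was called for all 4 receptors with every array left out in turn and in the other settings, except that Ptgfr was not called with normexp correction or in the authors' normalized values and was not measured with a filter at 7 arrays. The count of receptors called in wild-type cells, 2, became 1 with normexp correction, in the authors' values (Ptgir, adjusted p = 0.0385), with a filter at 7 arrays, with only the groups compared and with the replicate block (Ptger3 adjusted p = 0.0561). It became 3 with quantile normalization, slide as a random block and trend and robust variances (Ptgir adjusted p = 0.0456, 0.046 and 0.0478), and stayed 2 with the slide block, with Ptger4 in place of Ptger3; with single arrays left out it ran from 1 to 3. In knockout cells the count, 3, became 2 with normexp (Ptgir adjusted p = 0.0732) and, through Ptger3, with median scaling (0.0966), in the authors' values (0.0524), with no filter (0.0597), the slide block (0.0576) and the replicate block (0.0944). It became 4 without the cocultured arrays of slide 4 (Ptgfr adjusted p = 0.0489), and with single arrays left out it ran from 1 to 3. With the replicate block, the receptor calls in the averaged effect and in the genotype comparisons did not change.

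Without slide 4, 1 receptor (Ptger3) was called between cocultured genotypes, and 1 in the genotype difference of the coculture effect. Of all 16022 genes, 4233 and 1761 were called there. Leaving out only the cocultured arrays of slide 4, chosen after seeing the data, also gave 1 receptor between cocultured genotypes, with 4048 genes called. Ptger3 then just missed in the genotype difference (adjusted p = 0.0511), where 2037 genes were called. The cause was not tested.

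Differences that were not called changed sign as follows. For knockout minus wild-type BMMCs, Ptger3 was 0.02 with quantile normalization and 0.42 in the authors' values, Ptgfr -0.17 with normexp, and Ptger4 -0.04 with the slide block, -0.03 with the replicate block and -0.06 without slide 4; with single arrays left out, Ptger4 ran from -0.06 to 0.29 and Ptgfr from -0.10 to 0.73. For cocultured cells, Ptgir was 0.13 with median scaling and 0.46 without slide 4 or its cocultured arrays, Ptger3 -0.03 with quantile normalization, -0.40 with normexp and -0.30 in the authors' values, and Ptgfr 0.21 with normexp; single arrays gave -0.16 to 0.57 for Ptger3 and -0.49 to 0.18 for Ptgir. For the genotype difference of the coculture effect, Ptger3 was -0.05 with quantile normalization, -0.39 with normexp and -0.72 in the authors' values, and with normexp Ptgir was -0.06, Ptgfr 0.38 and Pla2g3 0.29; single arrays gave -0.06 to 0.68 for Ptger3. The averaged change of Fcer1a was -0.03, -0.04 and -0.18 with median scaling, quantile normalization and normexp, and -0.10 to 0.29 with single arrays left out, and that of Ptgdr2 -0.01 to 0.47.

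Median scaling moved the median of all genes from -0.06 to -0.23 in wild-type coculture and from 0.05 to 0.31 between cocultured genotypes. In the averaged effect 4522 genes were called, against 2345 in the fit with normexp and 1696 in that of the authors' values; how many are shared was not counted. Of genes called in wild-type coculture 46.7% were higher, and 71.6% in the authors' values; in knockout coculture 54.5%, and 30.8% with normexp and 28.8% in the authors' values. The lower bound for Ptgfr rests on its floor: a floor from probes averaged over replicate spots, also computed, gave 3.93-fold in place of 1.57-fold, but such averages lie below any spot called above background and were not used.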
